A study of Mus musculus with 12 samples.

Results

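Transcripts of 5 cytokine genes were followed in mouse airway macrophages (AMs) that met lipopolysaccharide (LPS) in culture. The genes were Tnf, Il6, Il12b, Il23a and Il10. They were taken by name from a table of 20551 genes, and all 5 were found in it. AMs came from Scnn1b-Tg mice, in which the club cell secretory protein (CCSP) promoter drives a sodium channel subunit in airway epithelium and mucus obstructs the airways, and from wild-type (WT) littermates, both on C57BL/6. Mice were 6-week-old females. Lavages of 3 to 4 mice made up 1 pool, and each of the 6 pools (WT 16, 17 and 18, and Tg 17, 18 and 19) was split into a well with 100 ng/ml LPS from Pseudomonas aeruginosa and a well with medium alone. RNA was taken at 12 h, which gave 4 groups of 3 libraries.

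AMs are the resident phagocytes of the air spaces. They sense LPS through Toll-like receptor 4, which switches on NF-kB and MAP kinase signalling and, with a delay, a second wave of genes that need newly made transcription factors. TNF belongs to the first wave and sets off inflammation in neighbouring cells. IL-6 drives the acute phase response. Il12b encodes p40, the subunit that IL-12 and IL-23 share. Il23a encodes p19, which pairs with p40 to form IL-23, a cytokine that maintains T cells making IL-17. IL-10 dampens macrophage activation and is secreted by many macrophages in answer to LPS.

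All 5 genes are protein coding, and none has exons that overlap another annotated gene on the mm10 build, so counting without regard to strand did not mix them with a neighbour. Tnf lies on the minus strand at chr17:35199381-35202007 and has 4 exon blocks. Il6 lies on the plus strand at chr5:30013114-30019981, Il12b on the plus strand at chr11:44400063-44414033, Il23a on the minus strand at chr10:128296139-128298752 and Il10 on the plus strand at chr1:131019845-131024974.

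Cytokine mRNAs are short-lived. AU-rich elements in their 3′ untranslated regions (UTRs) bind proteins that speed or slow decay, and the core of such an element is the pentamer ATTTA. Each of the 5 transcripts carries this pentamer in its UTR. A stretch of 30 bases with the most pentamers of its UTR is therefore printed below for each. It runs 5′ to 3′ on the strand of the gene, with ATTTA in capitals. Other stretches of Il6, Il23a and Il10 held as many, 2, 2 and 1. The Tnf stretch is at chr17:35199679-35199708, the Il6 stretch at chr5:30019677-30019706, the Il12b stretch at chr11:44413473-44413502, the Il23a stretch at chr10:128296187-128296216 and the Il10 stretch at chr1:131024372-131024401 of mm10.
Tnf: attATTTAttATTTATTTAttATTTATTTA
Il6: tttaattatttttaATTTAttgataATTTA
Il12b: ATTTAagtaATTTAtgtATTTAttaATTTA
Il23a: agtatagatgatggttATTTAttctATTTA
Il10: cctcgtttgtacctctctccgaaatATTTA

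The whole Tnf UTR of 764 bases held 8 pentamers, and the UTRs of Il6 (427 bases), Il12b (797 bases), Il23a (657 bases) and Il10 (706 bases) held 6 each. Over the 14350 genes of the table with an annotated 3′ UTR, the median was 1 pentamer. Per kb, the values ran from 7.53 for Il12b to 14.1 for Il6, beside a median of 1.39 over those UTRs with at least 200 bases. The longer nonamer TTATTTATT was found 5 times in Tnf and once in Il23a, and no match was found in Il6, Il12b or Il10. Of all UTRs, 6.83% held the nonamer and 1.43% held it 2 or more times. In Tnf, 7 of the 8 pentamers began between bases 421 and 482 after the stop codon and the last at base 631, as the map of pentamers along the UTRs shows. In Il10, 5 of the 6 began between bases 129 and 279 and the last at base 571. These are letter matches and carry no measurement of mRNA decay.

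**Figure D1:**
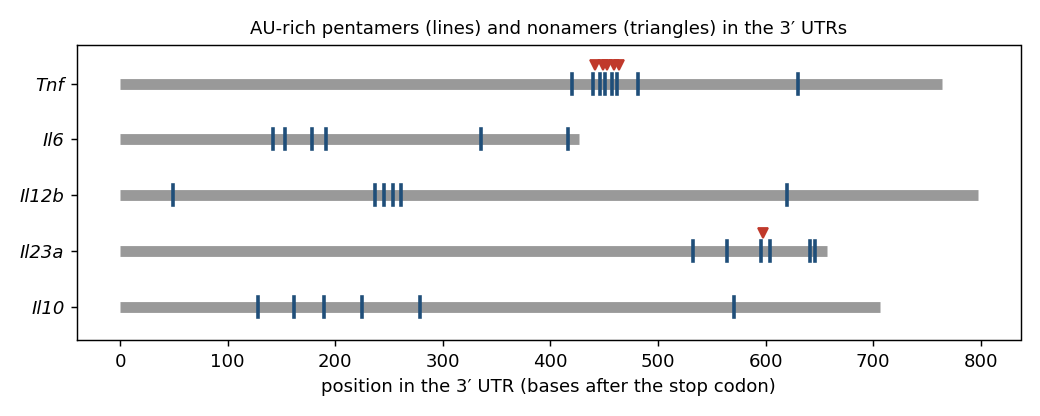
Positions of AU-rich pentamers (lines) and nonamers (triangles) along the 3′ UTRs of the 5 cytokine transcripts, in bases after the stop codon, with grey bars drawn to the length of each UTR. Tnf carries 8 pentamers and 5 nonamers, and the other 4 transcripts carry 6 pentamers each.

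RefSeq promoter sequences (build GRCm38.p6) were found for 3 of the 5 genes, Tnf, Il6 and Il12b. These are the 3 genes that rose with LPS, and the 250 bases before each transcription start are given 5′ to 3′ on the strand of the gene. Capitals mark matches to any of 6 motifs searched on both strands: the NF-kB consensus, the core of the interferon-stimulated response element, AP-1 (TGANTCA), the cAMP response element (TGACGTCA), C/EBP (TTGCNNAA) and the TATA box (TATAAA). The windows are chr17:35202008-35202257 for Tnf, chr5:30012864-30013113 for Il6 and chr11:44399813-44400062 for Il12b.
Tnf: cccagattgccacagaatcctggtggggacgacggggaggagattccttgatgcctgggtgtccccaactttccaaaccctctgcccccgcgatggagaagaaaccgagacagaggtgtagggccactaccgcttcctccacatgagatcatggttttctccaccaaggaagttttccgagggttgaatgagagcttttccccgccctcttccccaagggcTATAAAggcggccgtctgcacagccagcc
Il6: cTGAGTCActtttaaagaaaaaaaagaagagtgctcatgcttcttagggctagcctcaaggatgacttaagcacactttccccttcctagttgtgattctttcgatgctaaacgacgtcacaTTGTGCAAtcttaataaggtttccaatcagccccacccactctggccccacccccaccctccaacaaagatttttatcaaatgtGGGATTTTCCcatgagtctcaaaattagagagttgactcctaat
Il12b: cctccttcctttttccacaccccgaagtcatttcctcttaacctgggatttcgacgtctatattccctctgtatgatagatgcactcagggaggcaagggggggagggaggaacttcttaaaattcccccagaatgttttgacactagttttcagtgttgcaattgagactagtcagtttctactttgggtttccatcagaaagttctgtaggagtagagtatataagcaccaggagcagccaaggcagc

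The Il6 window held 1 NF-kB consensus whose first base was 44 bases before the start, 1 AP-1 match at 249 bases and 1 C/EBP match at 128 bases, the last of these on the other strand. The Tnf window held a TATA box at 29 bases, and no match of the 6 was found in the Il12b window. Of 32851 promoters of the same length, 7.25% held the NF-kB consensus, 6.75% AP-1, 9.56% C/EBP, 12.4% the TATA box, 1.55% the cAMP response element and 2.98% the interferon response element core. A match here is a description of letters, with no binding measured, and the motifs did not overlap.

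Libraries held 48.2 to 60.9 M deposited counts. These are estimated counts in which 1 sequenced read stood for about 2.5 counts, so the totals would stand for 9.64 to 12.2 M read pairs. A gene was taken to be at the detection floor in a group when each of its libraries had at most 8 counts, the worth of 3 reads, which is 0.131 to 0.166 counts per M counts of the library (CPM). The labels describe lavage cells that adhered to plastic and the methods describe sorted cells, so how pure the cultures were is uncertain. The summed level of 12 AM marker genes ran from 8545 to 17095 CPM. Most of this sum was Chil3, with group means from 7954 to 12604 CPM. Siglecf, a defining AM receptor, fell with LPS. Its WT mean was 115 CPM in medium and 11.1 CPM with LPS, and its Scnn1b-Tg mean 118 and 6.47 CPM. Of the 12 markers, 7 were called lower with LPS in WT and 8 in Scnn1b-Tg, and 2 were called higher in each genotype. The shares lower were 58.3% and 66.7%, beside 16.2% and 18.7% of all genes. The share higher was 16.7% in each, beside 15.5% and 19.3%. Marco and Car4 had higher means with LPS in both genotypes. For Marco the WT means were 631 CPM (medium) and 1255 CPM (LPS), and the Scnn1b-Tg means 512 and 1574 CPM. Summed markers of other cells reached 137 CPM for monocytes or interstitial macrophages, 121 for epithelium, 29.0 for neutrophils and 24.0 for dendritic cells. The sums stayed below 4 CPM for T or NK cells and for mast cells or basophils. The highest monocyte sum was mostly Fcgr4, whose mean in Scnn1b-Tg medium was 110 CPM. Pools WT 16, WT 17 and Tg 17 formed batch 1 of the labels, and WT 18, Tg 18 and Tg 19 batch 2.

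In medium, Il6, Il23a and Il10 were at the floor in both genotypes, and Tnf and Il12b were not. Of the 5, Tnf alone had a sizeable resting level. Its counts were 2169, 1414 and 2253 in WT pools 16, 17 and 18, and 993, 1847 and 1753 in Scnn1b-Tg pools 17, 18 and 19. Resting Il6 had 4, 6 and 0 counts in the WT libraries and 3, 0 and 0 in the Scnn1b-Tg libraries. No library reached 8 counts, so a difference in resting Il6 was not detectable at this depth.

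Il12b sat at the edge of detection. WT pool 16 had 10 counts and the other 2 WT pools had 0, while the 3 Scnn1b-Tg pools had 9, 12 and 15. The Scnn1b-Tg libraries therefore all lay just above the floor, but the WT value of 0.179 CPM in pool 16 fell inside their range of 0.154 to 0.280 CPM. For Il23a and Il10 there was no count in any of the 6 medium libraries, which allows up to 3 reads or 8 counts in each. These limits, like the intervals on reads, cover counting error only: reads were amplified and carry no molecular identifiers. The intervals also treat the reads of a pair as separate, which makes them too narrow. With the limit set at 3 counts in place of 8, 2 of the 5 genes were at the floor in WT and 3 in Scnn1b-Tg.

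LPS raised Tnf, Il6 and Il12b in both genotypes, and left Il23a and Il10 at or near the floor. After 12 h, Tnf was at 940, 976 and 1215 CPM in the WT pools and at 822, 1371 and 1431 CPM in the Scnn1b-Tg pools. Every LPS library was far above every medium library, whose highest value was 45.3 CPM. The Tnf log2 fold change was 4.80 ± 0.17 (SE) in WT, a 27.9-fold rise with an adjusted p of 1.55e-08, and 5.43 ± 0.17 in Scnn1b-Tg, a 43.2-fold rise with an adjusted p of 5.25e-09 (edgeR quasi-likelihood test, two-sided).

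Il6 reached 3.55, 2.26 and 2.91 CPM in the WT pools with LPS, from 178, 130 and 154 counts. In the Scnn1b-Tg pools it reached 7.94, 6.09 and 10.8 CPM, from 451, 320 and 567 counts. Measured against the floor in medium, the Il6 rise was at least 17.8-fold in WT (edgeR adjusted p 3.34e-06), and in Scnn1b-Tg it was at least 54.3-fold (4.81e-08). The fitted log2 fold changes, 5.44 ± 0.56 and 8.65 ± 0.59 (SE), rest on at most 6 counts per medium library and are no bound. Without the medium library of pool Tg 17, the only Scnn1b-Tg library with resting Il6 counts, the second of them became 11.8.

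Il12b was at 1.38, 1.67 and 1.49 CPM in WT and at 5.16, 2.81 and 3.62 CPM in Scnn1b-Tg with LPS. This again separated all LPS libraries from all medium libraries, the highest of which was at 0.280 CPM. The log2 fold change was 4.52 ± 0.64 (SE) in WT with an edgeR adjusted p of 0.000134, and 4.12 ± 0.44 in Scnn1b-Tg with an adjusted p of 8.80e-06. On the scale of reads, 4 reads in WT medium became 98 with LPS, a ratio of 23.6 with a 95% counting interval from 8.93 to 88.3. In Scnn1b-Tg, 14 reads became 253, a ratio of 18.3 with an interval from 10.7 to 34.04. Both intervals treat the reads of a pair as separate and so are too narrow. The WT value depends on pool 16: without its medium library, which held all the WT reads in medium, the fitted log2 fold change was 9.29.

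Of the 5 genes, 3 passed the low-count filter and all 3 were called higher with LPS in each genotype. Over the 13729 genes tested, 15.5% were called higher and 16.2% lower with LPS in WT, and 19.3% higher and 18.7% lower in Scnn1b-Tg. The 3 genes could pass the filter through their LPS libraries, so their count is given as a description. The same holds for the separation of their LPS from their medium libraries, for which the share of all genes was not counted.

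Il23a had 0, 5 and 0 counts in the WT pools with LPS and 0, 17 and 0 in the Scnn1b-Tg pools. Il10 had 0, 3 and 5 counts in WT and 5, 10 and 0 in Scnn1b-Tg. The LPS library of pool Tg 18 was alone in exceeding 8 counts for either gene, with 0.323 CPM for Il23a and 0.190 CPM for Il10. Both genes stayed below the filter. In a fit with no filter, the edgeR adjusted p for LPS was 0.655 in WT and 0.348 in Scnn1b-Tg for Il23a, and 0.354 and 0.151 for Il10. Summed over the 3 Scnn1b-Tg pools, Il23a went from 0 to 7 reads and Il10 from 0 to 6 reads with LPS. The 95% counting intervals of these ratios began at 1.46 and 1.195. They treat the reads of a pair as separate and leave out the spread between pools, so a start above 1 shows no rise. All the Il23a reads came from pool Tg 18. For WT, with 2 and 3 reads after LPS, the intervals began at 0.181 and 0.398. No rise of p19 or IL-10 transcripts was thus called over the pools, with 17 counts as the highest value in any library.

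**Figure D2:**
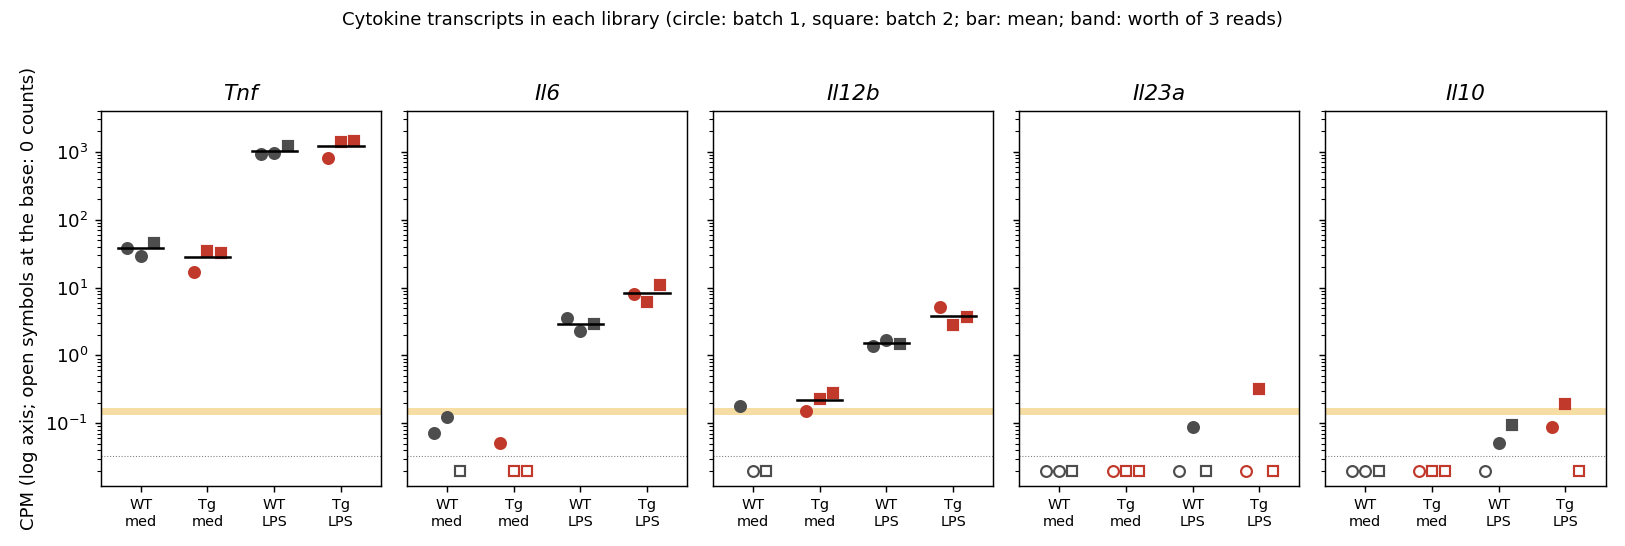
CPM (log axis) of each cytokine gene in each of the 12 libraries, WT in grey and Scnn1b-Tg in red, circles for batch 1 and squares for batch 2. Open symbols at the base had 0 counts, bars are means of groups with no library at 0, and the band is the worth of 3 reads. Tnf, Il6 and Il12b with LPS lie above all their medium libraries, whereas Il23a and Il10 rise above the band in 1 Scnn1b-Tg library.

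The 3 induced genes reached very different levels per kb of annotated exon. This length joins the exons of all transcripts of a gene, so it can exceed that of a single transcript. It was 1.64 kb for Tnf, 2.43 kb for Il6 and 1.97 kb for Il12b. With LPS, Tnf stood at 637 ± 91.4 CPM per kb in WT and 737 ± 205 in Scnn1b-Tg (SD, n = 3). Il6 stood at 1.197 ± 0.268 and 3.40 ± 0.969 CPM per kb, and Il12b at 0.769 ± 0.0736 and 1.97 ± 0.605. The order Tnf, Il6, Il12b held for the group means in both genotypes. Tnf was separate from the other 2 genes in each of the 6 libraries, and Il6 exceeded Il12b per length in each of them too. Il10, at 0.0373 and 0.0708 CPM per kb, and Il23a, at 0.0129 and 0.0480, came last and cannot be ordered beyond their spread.

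With LPS, Il6 and Il12b were higher in Scnn1b-Tg than in WT in every library, and Tnf was not, but none of the 3 passed the test over all genes. Mean Il6 was 8.26 ± 2.35 CPM in Scnn1b-Tg, against 2.91 ± 0.65 CPM in WT (SD, n = 3). The Il6 log2 fold change was 1.52 ± 0.29 (SE), or 2.87-fold, with a 95% interval from 0.90 to 2.14, an unadjusted p of 0.000107 and an edgeR adjusted p of 0.0798. By p-value it ranked 17 of 13729 genes. Over all alternatives its log2 fold change stayed between 1.31 and 1.76 and its adjusted p between 0.0537 and 0.484.

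The Il12b means with LPS were 3.87 ± 1.19 CPM in Scnn1b-Tg, against 1.51 ± 0.145 CPM in WT. The log2 fold change was 1.46 ± 0.33 (SE), or 2.74-fold, with a 95% interval from 0.75 to 2.17, an unadjusted p of 0.000697 and an edgeR adjusted p of 0.150. It ranked 64 by p-value, and its adjusted p ran from 0.0897 to 0.861 over the alternatives. The lowest Scnn1b-Tg library, pool 18 at 2.81 CPM, lay above the highest WT library at 1.67 CPM.

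Tnf means with LPS were 1208 ± 336 CPM in Scnn1b-Tg, against 1044 ± 150 CPM in WT, and the libraries overlapped. The log2 fold change was -0.04 ± 0.15 (SE) with an edgeR adjusted p of 1, and its 95% interval from -0.36 to 0.29 holds a change of either sign. With the batch term removed the estimate was 0.21, so its sign was set by the fit. Of the 13729 genes tested, 0.0510% were called between the genotypes with LPS, all higher in Scnn1b-Tg, and 0 of the 3 cytokine genes were among them, with 2 at an unadjusted p under 0.05 and 0 called by DESeq2. Of all genes, 7.12% had such a p and DESeq2 called 1.06%. Genes without overlap of the libraries and higher in Scnn1b-Tg made up 5.72% of those tested, and Il6 and Il12b were 2 of these.

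Within batch 1, with 1 Scnn1b-Tg and 2 WT pools, the difference of mean log2(CPM + 0.5) between Scnn1b-Tg and WT was 1.34 for Il6 and 1.49 for Il12b. Within batch 2, with 2 Scnn1b-Tg pools and 1 WT pool, it was 1.34 and 0.89. Tnf went in opposite directions, with -0.22 in batch 1 and 0.20 in batch 2. For Il6 and Il12b the direction within a batch was fixed beforehand, because every Scnn1b-Tg library with LPS lay above every WT library. Only the sizes add to that.

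The same 2 genes, already apart between the genotypes in CPM with LPS, stayed apart when set against Tnf in the same library. Tnf overlapped between the genotypes, so these ratios largely repeat the LPS levels and are no separate evidence. Il6 per 1000 Tnf, both per kb of annotated exon, was 2.55, 1.56 and 1.62 in the WT pools. In the Scnn1b-Tg pools it was 6.52, 3.00 and 5.07. Il12b per 1000 Tnf was 1.22, 1.42 and 1.02 in WT and 5.23, 1.71 and 2.11 in Scnn1b-Tg. No Scnn1b-Tg pool overlapped a WT pool in either ratio, as for 1.67% of all other tested genes set against Tnf in this direction, and both ratios share the Tnf values. For each of these ratios the two-sided exact permutation test gave p = 0.1, the smallest that 3 pools against 3 allow, and 0.15 after Benjamini-Hochberg adjustment over the 3 ratios computed. Il6 over Il12b did not separate the genotypes, with an exact permutation p of 0.7.

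Summed markers of dendritic cells and neutrophils, and narrowly those of monocytes or interstitial macrophages, were higher in Scnn1b-Tg with LPS. Those of epithelium were lower. No gene of the marker lists in this paragraph was called between the genotypes with LPS. Summed over the 8 dendritic cell genes found of the 10 listed, the level with LPS was 15.3 to 24.0 CPM in Scnn1b-Tg, against 12.6 to 13.1 CPM in WT, and none of the 8 was at the floor in all groups. Ccr7, which guides maturing dendritic cells to lymph nodes, made up most of it at means of 14.4 CPM in Scnn1b-Tg against 6.88 CPM in WT, a log2 fold change of 1.09 ± 0.19 (SE) with an edgeR adjusted p of 0.0798. In medium Ccr7 was called higher in Scnn1b-Tg, by 1.33 ± 0.22 with an adjusted p of 0.0420. Flt3, a defining receptor of dendritic cells, was at 0.174 and 0.0488 CPM. The 7 neutrophil genes found of the 10 listed came to 14.99 to 20.01 CPM in Scnn1b-Tg against 12.8 to 13.9 CPM in WT, with S100a9 and Ngp at the floor throughout. The 10 monocyte or interstitial macrophage genes came to 24.2 to 25.0 CPM in Scnn1b-Tg against 20.1 to 24.0 CPM in WT, nearly touching but without overlap. The 8 T or NK cell genes found of the 10 listed came to 2.18 to 2.54 CPM against 1.81 to 2.52 CPM, which overlap. The 10 epithelial genes were lower in Scnn1b-Tg, at 37.0 to 69.0 CPM against 81.7 to 121 CPM. The part of these cells in the Il6 and Il12b values was not tested, and in bulk RNA more cells of a type and more RNA per cell cannot be told apart.

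In medium, resting Tnf was lower in Scnn1b-Tg without passing the test. The values were 16.996, 35.1 and 32.7 CPM in the Scnn1b-Tg pools and 38.8, 28.8 and 45.3 CPM in the WT pools, so the groups overlapped through WT pool 17. The log2 fold change was -0.67 ± 0.15 (SE) with a 95% interval from -1.003 to -0.33, an unadjusted p of 0.00111 and an edgeR adjusted p of 0.0922. DESeq2, with the same terms, gave -0.67 and an adjusted p of 0.00253. Of the genes tested, 0.335% were called in medium by edgeR, none of them a cytokine gene of the 5. An unadjusted p under 0.05 was found for 13.4% of genes, and DESeq2 called 3.64%. Tnf was lower in Scnn1b-Tg in both batches, with differences of -0.96 and -0.41 on the log2(CPM + 0.5) scale.

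Resting Il12b had a log2 fold change of 1.86 ± 0.95 (SE) with an edgeR adjusted p of 0.427, and resting Il6 one of -1.70 ± 1.59 with an adjusted p of 0.695. Both rest on counts of 15 or less in each library. Their intervals, from -0.19 to 3.91 and from -5.08 to 1.68, leave the direction unset. Over the alternatives the values ran from 1.28 to 6.62 for Il12b, the highest without the medium library of WT 16, and from -4.84 to -0.86 for Il6, the lowest without that of Tg 17.

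**Figure D3:**
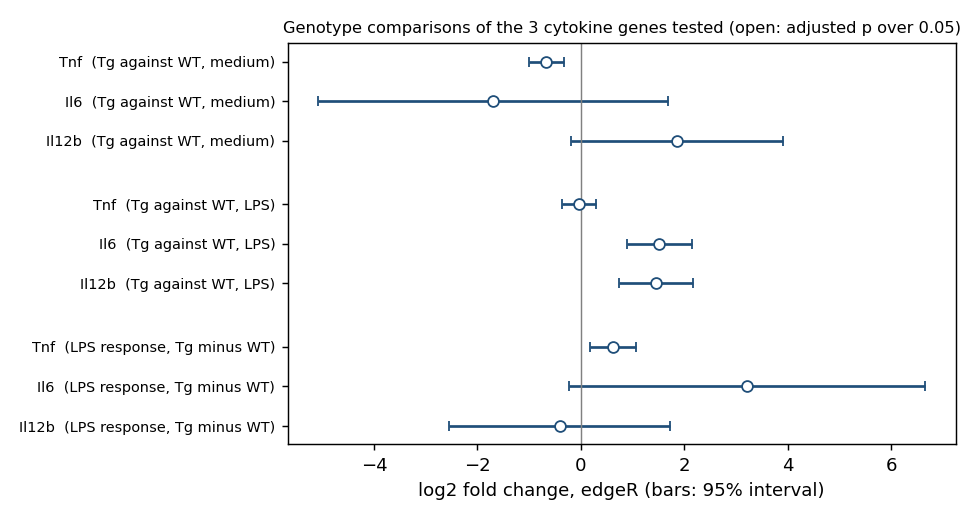
Fitted log2 fold changes of Tnf, Il6 and Il12b (points) with 95% intervals (bars) for Scnn1b-Tg against WT in medium and with LPS, and for the difference of the LPS responses. All points are open because no adjusted p was under 0.05. With LPS, Il6 at 1.52 and Il12b at 1.46 lie right of 0 and Tnf at -0.04 lies on it.

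The change within each pool gave a paired view of the LPS response. The Tnf fold was 24.2, 33.9 and 26.8 in WT pools 16, 17 and 18 and 48.4, 39.0 and 43.7 in Scnn1b-Tg pools 17, 18 and 19. Each Scnn1b-Tg pool thus changed more than each WT pool, with a lower start in medium and an LPS level that overlapped. On the log2(CPM + 0.5) scale the mean change was 5.42 ± 0.14 in Scnn1b-Tg and 4.79 ± 0.25 in WT (SD, n = 3), with a two-sided exact permutation p of 0.1, the smallest possible.

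For Il6 the mean change by pool on that scale was 4.05 ± 0.40 in Scnn1b-Tg and 2.58 ± 0.38 in WT, and for Il12b 2.57 ± 0.48 and 1.86 ± 0.34, again without overlap. With medium values near 0, these changes mostly repeat the LPS levels. All 3 genes were among the 9.18% of tested genes whose change was higher in each Scnn1b-Tg pool than in each WT pool.

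In the fitted model, the LPS response of Tnf was larger in Scnn1b-Tg by 0.63 ± 0.20 (SE) on the log2 scale, with an unadjusted p of 0.00968 and an edgeR adjusted p of 0.670. For Il6 the difference was 3.22 ± 1.61 with an adjusted p of 0.860, and it ran from 2.35 to 6.35 over the alternatives, the highest without the medium library of Tg 17. For Il12b it was -0.41 ± 0.99 with an adjusted p of 0.995, opposite in sign to the pool means. The edgeR test called 0.00% of genes, where 817 (5.95%) had an unadjusted p under 0.05, Tnf among them, and DESeq2 called 77 (0.561%), none of them a cytokine gene of the 5.

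**Figure D4:**
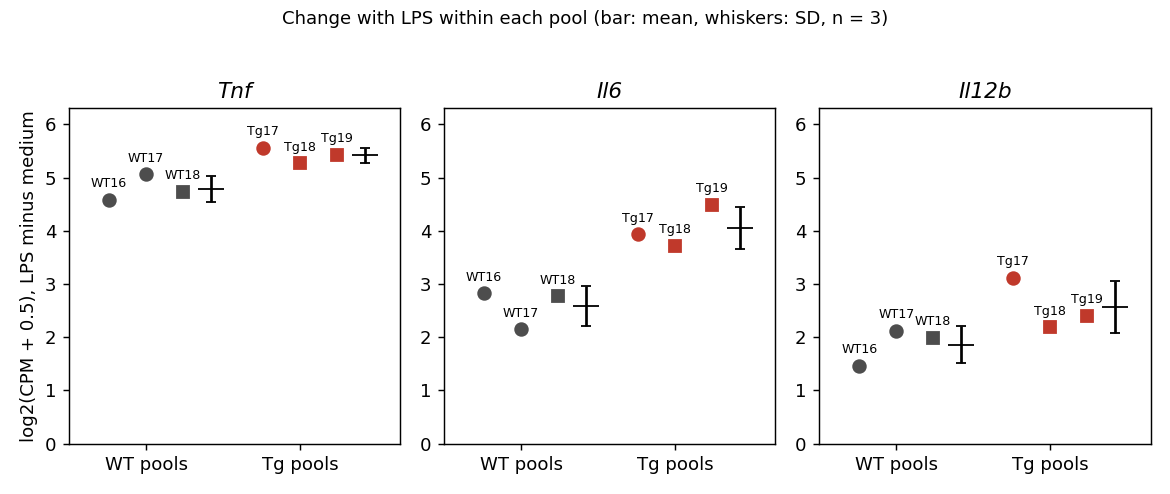
Change of Tnf, Il6 and Il12b with LPS within each of the 6 pools, as the difference of log2(CPM + 0.5) between the LPS and the medium library, with group mean and SD (n = 3) and circles for batch 1, squares for batch 2. Every Scnn1b-Tg pool lies above every WT pool in each panel, with Tnf means of 5.42 and 4.79.

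Il12a encodes p35, the partner of p40 in IL-12. It had no count in any WT library with LPS, and in Scnn1b-Tg its mean with LPS was 0.125 CPM, where 1 library held 17 counts. The subunits of IL-27 both rose: Il27 had a log2 fold change of 1.08 ± 0.23 (SE) in WT and 1.39 ± 0.21 in Scnn1b-Tg, and Ebi3 one of 1.36 ± 0.21 and 1.69 ± 0.20, all past the edgeR threshold. Exons of Il27 overlap those of Apobr, and exons of Ebi3 those of a predicted gene. Part of their counts may therefore belong to those genes. This limit also applies to genes given below, among them Il12rb2 (overlap with Serbp1), Il27ra (Palm3), Adam17 (Iah1), Cebpd (Spidr) and Dusp1 (Ergic1). Exons of Il6ra, Clcf1, Bhlhe40, Maf and Zfp36 overlap other annotated genes too. In all, 3 of 5 ligand subunits of the family were tested and 3 were higher with LPS in both genotypes. Of all genes, 15.5% were higher in WT and 19.3% in Scnn1b-Tg. The median log2 fold change of the 3 subunits was 1.36 in WT, where the median of all tested genes was 0.00.

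Receptor chains of the family went in both directions, with 1 of 3 tested genes higher, 1 lower and 1 without a call in each genotype. Of all genes, 15.5% were higher and 16.2% lower in WT, and 19.3% and 18.7% in Scnn1b-Tg. Il12rb2, a signalling chain of the IL-12 receptor, fell in WT from 44.5 to 19.5 CPM and in Scnn1b-Tg from 38.1 to 16.97 CPM, with log2 fold changes of -1.19 ± 0.11 and -1.16 ± 0.11 (SE). Il27ra rose by 0.86 ± 0.13 and 0.50 ± 0.13. Il23r and Il12rb1, which IL-23 needs for binding, were below the filter, with at most 5 and 10 counts in a library.

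Genes that release or receive TNF mostly rose. Of 12 tested, 7 were higher in WT and 8 in Scnn1b-Tg, and none was lower. The shares higher were 58.3% and 66.7%, beside 15.5% and 19.3% of all genes. The median log2 fold change was 0.82 and 1.03, beside 0.00 and -0.02 for all genes. Rhbdf2, which helps the sheddase ADAM17 to the cell surface, rose by 0.72 ± 0.12 in WT and 0.93 ± 0.12 in Scnn1b-Tg (log2, SE). Adam17 itself, which cuts TNF from the membrane, had 0.42 ± 0.15 with an edgeR adjusted p of 0.0541 in WT and 0.38 ± 0.15 with 0.0689 in Scnn1b-Tg, where DESeq2 gave 0.0277 and 0.0468.

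Tnfrsf1b, the TNF receptor 2 gene, rose in WT from 1663 to 3384 CPM and in Scnn1b-Tg from 1537 to 3480.4 CPM. Tnfrsf1a, the gene of the more widely expressed receptor 1, had a log2 fold change of 0.14 ± 0.08 without a call in WT and of 0.29 ± 0.08 with an adjusted p of 0.0160 in Scnn1b-Tg. Traf1, an adaptor that is itself an NF-kB target, showed the largest change of the list, with 6.99 ± 0.27 and 7.02 ± 0.26. Tnfaip3, the gene of the feedback inhibitor A20, rose by 2.36 ± 0.28 and 2.67 ± 0.29.

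In the IL-6 family, 4 of 9 tested genes were higher and 1 was lower in each genotype. These are 44.4% and 11.1%, beside 15.5% higher and 16.2% lower of all genes in WT and 19.3% and 18.7% in Scnn1b-Tg. The median log2 fold change of the 9 was 1.22 in WT and 1.24 in Scnn1b-Tg. Lif rose by 2.002 ± 0.23 and 2.296 ± 0.24 and Clcf1 by 3.27 ± 0.15 and 3.89 ± 0.17 (log2, SE), in WT and Scnn1b-Tg. The gene that fell was Il6ra, the chain that binds IL-6, which in WT went from 24.01 to 6.56 CPM and in Scnn1b-Tg from 34.996 to 8.03 CPM. Il6st, which encodes the shared signalling chain gp130, had -0.43 ± 0.18 with an edgeR adjusted p of 0.103 in WT and -0.44 ± 0.18 with 0.0813 in Scnn1b-Tg.

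Genes of the IL-10 receptor and its signal were well expressed, although Il10 itself was at or near the floor. Il10ra, the ligand-binding chain, had means of 52.4 CPM in WT medium and 76.5 CPM in Scnn1b-Tg medium, and of 82.1 and 57.02 CPM with LPS. Its log2 fold change was 0.64 ± 0.23 in WT and -0.40 ± 0.23 in Scnn1b-Tg, with edgeR adjusted p of 0.0546 and 0.200, while DESeq2 called the WT change with 0.0205. The difference of the responses was -1.04 ± 0.33 with an edgeR adjusted p of 0.651. Socs3, a feedback inhibitor that both IL-6 and IL-10 induce through STAT3, rose by 4.22 ± 0.15 and 4.29 ± 0.15. Of the 13 genes listed, 9 were tested, of which 3 were higher in WT and 4 in Scnn1b-Tg, with none lower. The shares higher were 33.3% and 44.4%, beside 15.5% and 19.3% of all genes.

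Of 16 transcription factors known to act at these cytokine genes, 10 were higher and 2 lower in each genotype. Among all genes tested, 15.5% were higher and 16.2% lower in WT, and 19.3% and 18.7% in Scnn1b-Tg. The list thus lay above all genes in its share higher and below them in its share lower, in both genotypes. Nfkbiz encodes a nuclear cofactor of NF-kB needed for full Il6 and Il12b transcription, and it rose by 4.69 ± 0.13 in WT and 4.704 ± 0.13 in Scnn1b-Tg (log2, SE). Rel, the NF-kB subunit tied to p40 and p19, rose by 0.87 ± 0.11 and 0.57 ± 0.11, and Cebpd by 0.997 ± 0.11 and 1.304 ± 0.11. Irf8, which takes part in Il12b transcription, was lower, at -0.83 ± 0.11 and -0.86 ± 0.11. Bhlhe40, a repressor of Il10, was lower too, at -0.49 ± 0.09 and -0.72 ± 0.09, while Maf, an activator of Il10, was at no more than 0.257 CPM in any group.

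Of 15 genes that govern the stability or translation of cytokine mRNAs, 3 were higher and 2 lower in WT, and 5 were higher and 4 lower in Scnn1b-Tg. In WT these shares were near the 15.5% and 16.2% of all genes, and in Scnn1b-Tg they were 33.3% and 26.7% beside 19.3% and 18.7%. Zc3h12a encodes Regnase-1, a nuclease that degrades Il6 and Il12b mRNA, and rose by 3.27 ± 0.16 and 3.13 ± 0.16. Zfp36 encodes tristetraprolin, which binds the nonamers printed above and shortens the life of Tnf mRNA. It was at 78.7 CPM in medium and 80.6 CPM with LPS in WT, and at 84.6 and 65.7 CPM in Scnn1b-Tg, with log2 fold changes of 0.03 ± 0.10 without a call and -0.36 ± 0.10 with an edgeR adjusted p of 0.0181. The difference between these responses was -0.39 ± 0.15 with an adjusted p of 0.732. Mapkapk2, the kinase that inactivates tristetraprolin, rose by 0.82 ± 0.08 and 1.13 ± 0.08, and Dusp1, the phosphatase that ends p38 signalling, by 1.71 ± 0.10 and 2.12 ± 0.10.

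Between the genotypes, in medium, with LPS and for the difference of the responses, 0 of the 66 tested genes of these 7 lists were called by edgeR. At an unadjusted p under 0.05 there were 12 in medium, 14 with LPS and 10 for the difference, and DESeq2 called 7 in medium (Atf3, Bcl3, Clcf1, Dusp1, Irf5, Mapkapk2 and Zfp36l2) and 0 in the other 2 comparisons. The counts at an unadjusted p make up 18.2%, 21.2% and 15.2% of the 66, beside 13.4%, 7.12% and 5.95% of all genes, and the 7 DESeq2 calls 10.6% beside 3.64%. The lists share members: Il6st stands in 2 of them, and Il6, Il12b, Il23a and Il10 each stand in the list of their own family.

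**Figure D5:**
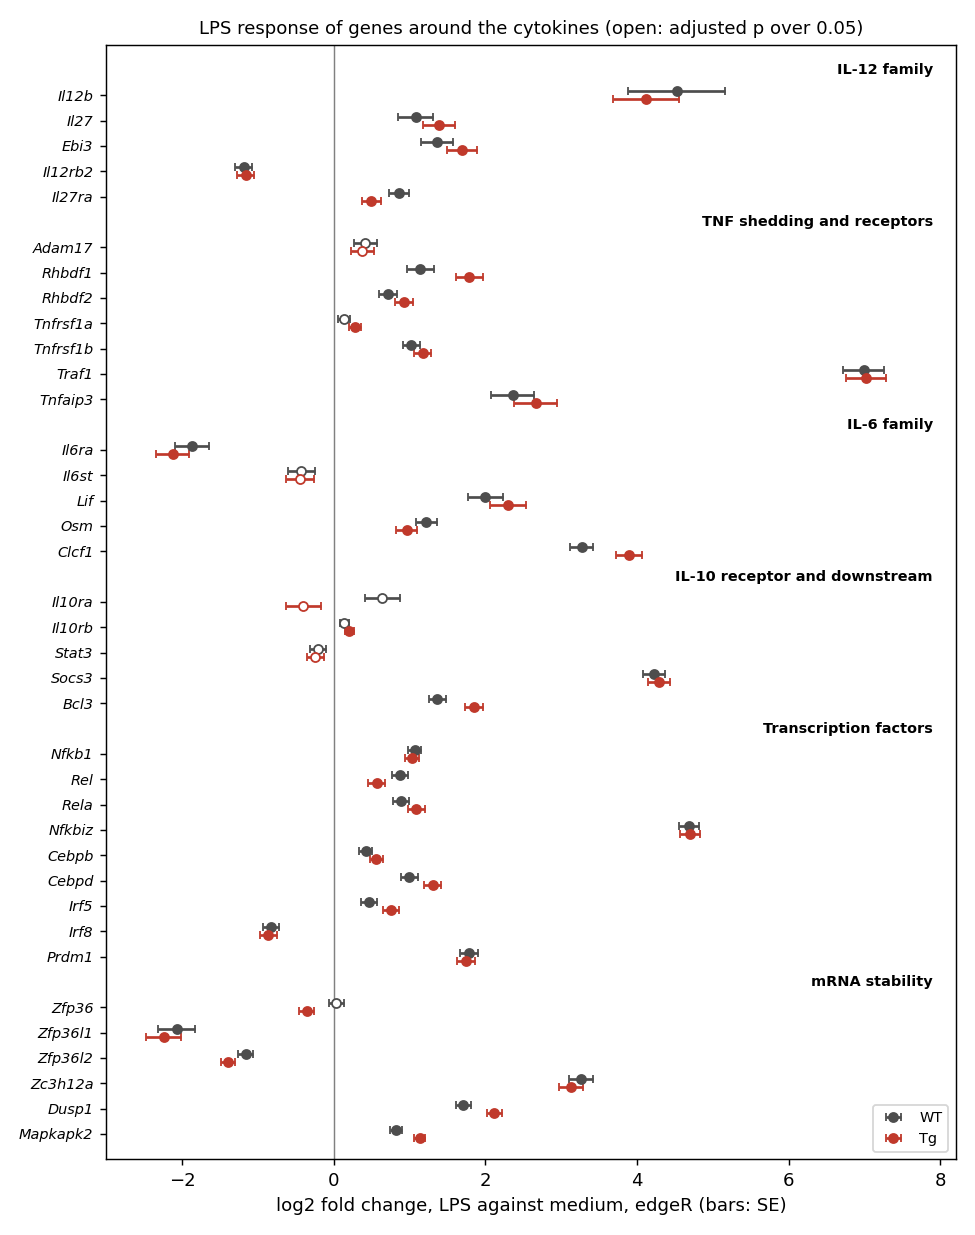
Log2 fold change with LPS (points, with SE as bars) in WT (grey) and Scnn1b-Tg (red) for selected genes of the 6 groups described in the text, open where the edgeR adjusted p was over 0.05. In WT, Traf1, Nfkbiz and Il12b lie farthest to the right, with 6.99, 4.69 and 4.52, and Il6ra and Zfp36l1 farthest to the left.

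The genes most like each tested cytokine gene were found by the root mean square difference of centred log2 CPM over the 12 libraries, over the 11153 genes that averaged 1 CPM or more. For Tnf these were Ccl3 (0.324), Ccl4 (0.368) and Cxcl10 (0.373), all chemokine genes, where the median gene stood at 2.60. Mean Ccl3 in WT was 19.1 CPM in medium and 447 CPM with LPS, and in Scnn1b-Tg 17.8 and 724 CPM. For Il6 they were Il1b (0.722), which encodes interleukin-1β, Orm1 (0.760), an acute phase protein gene, and Acod1 (0.777), whose enzyme makes itaconate, where the median gene stood at 3.22. For Il12b they were Zmynd15 (0.708), Sdc4 (0.744), which encodes a cell surface proteoglycan, and Apol9b (0.747), where the median gene stood at 2.36. The 12 libraries share the LPS contrast, so these distances mostly follow its size, and the larger values for Il6 and Il12b go with their few counts in medium.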

How the data were processed

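RNA was sequenced from 12 libraries of AMs (4 groups of 3, from 6 pools). According to the labels and methods, the authors aligned read pairs to mm10 with HISAT2 and quantified GENCODE genes with StringTie. The authors deposited whole-number estimated counts per gene made from coverage, unfiltered and not normalized, and these were used as deposited. Of the low values, 55.3% lay on a step of 2.5 counts per read, where an even spread gives 40%. Symbols came from a later GENCODE release on the same build, with 20132 IDs matched and 419 not. UTRs follow that annotation.

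Counts were tested with edgeR 4.0.16 in R 4.3.3: filterByExpr (minimum count 10, minimum total 15) kept 13729 genes, TMM factors were applied, and a quasi-likelihood fit to all libraries held the 4 groups and the batch (the study used the date of library preparation). P-values are two-sided and Benjamini-Hochberg adjusted over these genes, with a threshold of 0.05, and every adjusted p without another tool's name is from edgeR. CPM are TMM-scaled. DESeq2 1.42.0, limma 3.58.1 and other settings were alternatives. On counts simulated for Scnn1b-Tg against WT with LPS over 13472 genes, 66.0% of genes changed by 1 on the log2 scale and 84.0% of those changed by 2 were recovered by edgeR.

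Named were the 5 cytokine genes in every comparison, for each tested one the 3 genes nearest in pattern, and, from 7 lists, genes that bear directly on one of the 5. The genes and lists were chosen with earlier results of these data known. The result of 1 marker list is not reported here. Medium and LPS libraries of a pool share their animals, and their deviations from the group means correlated at r = 0.137 to 0.335 over genes, the highest with the own pool in 6 of 6 pools. Pools are combined animals, so the spread is between pools.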

Additional observations from a re-analysis of the deposited data

How the results depend on the processing

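Of 319 values of Tnf, Il6 and Il12b under alternatives, 312 kept direction and side of the threshold, 1 passed it and 6 changed sign. DESeq2 passed the threshold for resting Tnf (adjusted p 0.00253), so that 1 of the cytokine genes was called in medium in place of 0. Tnf between genotypes with LPS (-0.04) became 0.21 without the batch term and ran from -0.19 (without the LPS library of WT 18) to 0.0471 (without that of Tg 17). The difference of the Il12b responses (-0.41) ran from -5.17 (without the medium library of WT 16) to 0.19 (without that of WT 17). Neither was past the threshold in any setting, and the cause was not tested. Resting Il12b within batches, Scnn1b-Tg minus WT, was 0.17 and 0.59 with 0.5 added to CPM but 1.09 and 2.96 with a prior count of 2, so its size is not fixed at this depth.

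With the pool as a replicate block, fixed in edgeR, the log2 fold change of Tnf with LPS was 4.81 in WT and 5.44 in Scnn1b-Tg. As a random effect in limma, the block gave 1.47 for Il6 between genotypes with LPS (adjusted p 0.0777), and it changed no call of the 5 genes.

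Counts of all genes moved more. With LPS, 7 genes were called between genotypes by edgeR, 146 by DESeq2, 4 without the batch term, 2 with the compared groups alone, 11 with the replicate block in limma, and 2 to 10 with 1 library left out (3 without the LPS library of WT 18 and 2 without that of Tg 17). In medium, 46 became 500 by DESeq2, 18 with no filter, 28 without the batch term, 20 with the compared groups alone, and 3 to 49 with 1 library left out. It was 30 or less without any one of the medium libraries of WT 16, 17 and 18 and Tg 17 and 19, or the LPS libraries of WT 18 and Tg 17, 18 and 19. For the difference of the responses, 0 became 77 by DESeq2 and 1 without the medium library of Tg 17 or the LPS library of Tg 18. The older quasi-likelihood estimate, added after the data had been seen, kept each call of the 5 genes. Il6, Il23a and Il10 in medium lie under what 3 reads allow, and depth limits any statement on them.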
